A study of Mus musculus with 4 samples.

Results

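The TRAV12 family is a group of alpha chain V genes of the mouse T cell receptor (TCR), and its members here were all deposited alpha chain contigs whose V gene name starts with TRAV12-, TRAV12D- or TRAV12N-. A contig is 1 assembled receptor chain of 1 cell. They were 65 contigs among 729 alpha chain contigs: 45 of 393 in the library of wild-type (WT) tumours and 20 of 336 in the library of p53 knockout (p53 KO) tumours. They lay in 44 WT and 20 p53 KO cells. Both libraries came from whole tumours of MC38, a mouse colon carcinoma cell line, grown in C57BL/6J mice given anti-PD-1, which blocks the inhibitory receptor PD-1 on T cells. In the p53 KO group the cell line had been knocked out for p53 with CRISPR-Cas9 before inoculation, and all else given by the labels is shared. How many mice went into a library, and whether the knockout line is 1 clone, is not in the labels. With 1 library per genotype there is no replicate error to test against, so differences are given with counting intervals and no p-value.

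Alpha chains are made in the thymus by joining 1 of many V genes to 1 of many J genes. The V gene writes the loops CDR1 and CDR2, which mostly touch the presenting MHC molecule, and the start of CDR3. The rest of CDR3, which lies closest to the bound peptide, comes from the junction and the J gene. In C57BL/6 mice the V alpha locus holds repeated blocks, so that most V alpha families have several close copies: those with no letter, those with D (duplicated) and those with N. A T cell can join V and J on both copies of the chromosome, and so a cell may carry a second alpha chain.

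The alpha chains rested on few molecules. The median was 5 unique molecular identifiers (UMIs, which tag single RNA molecules) per TRAV12 contig in WT, with a range of 1 to 12, and 3 in p53 KO, with a range of 1 to 8. Alpha contigs of other V genes had medians of 5 and 4. Fewer than 3 UMIs lay behind 8 of the 45 WT and 6 of the 20 p53 KO contigs. The libraries had 0 cell barcodes in common. Intervals are exact 95% binomial intervals (Clopper-Pearson), which measure counting error alone and treat cells of 1 clone as independent.

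Gene names and loop sequences, both given for the same contigs and so no separate check of each other, went together without exception. Each of the 6 gene names had 1 CDR1, 1 CDR2 and 1 V nucleotide sequence, from framework 1 to framework 3, in all of its contigs. The CDR1 sequences are shown first because they tell the duplicated copies apart, and capitals mark the bases that differ between the copy without a letter and its D copy:
TRAV12-1: actActtaTtTaACtAttgcc
TRAV12D-1: actGcttaCtCaGAtGttgcc
TRAV12-2: aGtacttactcacctttc
TRAV12D-2: aCtacttactcacctttc
TRAV12-3: actatttactcaaatGctttc
TRAV12D-3: actatttactcaaatCctttc

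The pair numbered 1 differed most. Its CDR1 was TTYLTIA in TRAV12-1 and TAYSDVA in TRAV12D-1, with 6 changed bases and 4 changed residues (T2A, L4S, T5D and I6V, counted from 1 at the start of the loop, TRAV12-1 first). The pair numbered 2 had a CDR1 of 6 residues in place of 7, STYSPF in TRAV12-2 and TTYSPF in TRAV12D-2 (S1T). The pair numbered 3 had TIYSNAF in TRAV12-3 and TIYSNPF in TRAV12D-3 (A6P). Over 267 or 270 bases of V sequence, the copies were 94.4% identical in the pair numbered 1, 96.3% in the pair numbered 2 and 96.7% in the pair numbered 3.

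CDR2 came in 2 forms that did not follow the copy numbers. The base that differs is again in capitals, in the pair numbered 2:
TRAV12-2: agctTcacagacaacaagagg
TRAV12D-2: agctCcacagacaacaagagg

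The first codes SFTDNKR and the second SSTDNKR. In the pair numbered 3 the forms were exchanged, as TRAV12-3 carried SSTDNKR and TRAV12D-3 carried SFTDNKR (S2F). TRAV12-1 and TRAV12D-1 both carried SSTDNKR. A contig could thus be told from its copy by CDR1 in each pair, and by CDR2 in the pairs numbered 2 and 3.

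All 6 names matched V segments of chromosome 14 as annotated by RefSeq on GRCm38.p6, which is mm10. The D copies lie at 52844560 to 52845041 (TRAV12D-1), 52915915 to 52916426 (TRAV12D-2) and 52929789 to 52930282 (TRAV12D-3). The copies without a letter lie at 53538266 to 53538738 (TRAV12-1), 53616397 to 53616914 (TRAV12-2) and 53621752 to 53622245 (TRAV12-3). Between them lie TRAV12N-1 (53155607 to 53156088), TRAV12N-2 (53226884 to 53227400) and TRAV12N-3 (53240751 to 53241244). The N copies had 0 of 65 contigs, which allows a share of up to 4.62% of the family (3 counts of the total). The upper end of the exact interval is 5.52%. Limits given below for other counts of 0 also use 3 counts of the total, and so lie below the exact upper end. The germline sequences of the N copies were not used here, so whether a chain of an N copy could carry the name of another copy was not tested.

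TRAV12D-2 was the most used gene of the family in WT and TRAV12-2 in p53 KO. TRAV12D-2 was in 16 WT cells and 5 p53 KO cells, with 10 and 5 distinct alpha sequences. A distinct alpha sequence is 1 combination of V gene, J gene and CDR3 nucleotides, so that a clone counts once. TRAV12-2 was in 5 WT cells and 9 p53 KO cells, with 5 and 6 distinct sequences. As a share of the family's contigs the WT value was 11.1% (3.71 to 24.1) and the p53 KO value 45% (23.1 to 68.5), and by distinct sequences 18.5% (6.30 to 38.1) and 40% (16.3 to 67.7). The intervals overlap on both counts.

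The genes numbered 3 were in 20 of 45 WT contigs (44.4%, 29.6 to 60.003) and 4 of 20 p53 KO contigs (20.0%, 5.73 to 43.7). By distinct sequences they were in 8 of 27 (29.6%, 13.8 to 50.2) and 3 of 15 (20.0%, 4.33 to 48.1), and the intervals overlap on both counts. TRAV12D-3 was in 11 WT and 3 p53 KO cells, with 4 and 2 distinct sequences. TRAV12-3 was in 9 and 1, with 4 and 1. TRAV12-1 was in 4 WT cells, each a separate clonotype, and in 0 of 20 p53 KO contigs, which allows up to 15%. TRAV12D-1 was in 2 p53 KO cells with the same chain and in 0 of 45 WT contigs, which allows up to 6.67%. The D copies together had 27 of 45 WT contigs (60%, 44.3 to 74.3) and 10 of 20 p53 KO contigs (50.0%, 27.2 to 72.8). By distinct sequences they had 14 of 27 (51.9%, 31.9 to 71.3) and 8 of 15 (53.3%, 26.6 to 78.7), close to even with the copies without a letter in both libraries.

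**Figure D1:**
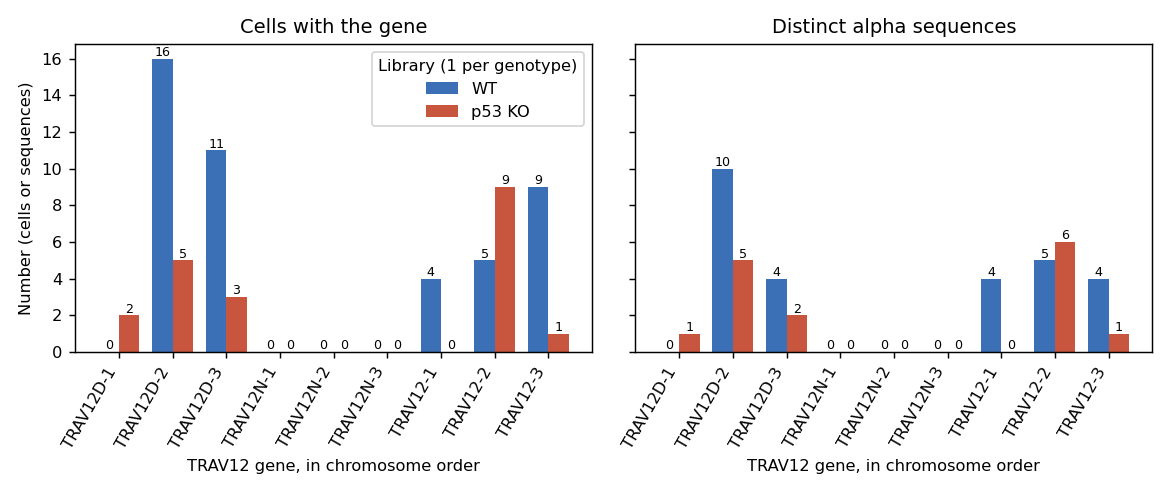
Number of cells (left) and of distinct alpha sequences (right) with each of the 9 TRAV12 V segments, in chromosome order, in the WT library (blue) and the p53 KO library (red). TRAV12D-2 leads in WT with 16 cells, TRAV12-2 leads in p53 KO with 9 cells, and all 3 N copies are at 0.

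The family took a larger share of cells in WT. A TRAV12 chain was in 44 of 359 WT cells with an alpha chain (12.3%, 9.05 to 16.1) and in 20 of 300 p53 KO cells (6.67%, 4.12 to 10.1), and the intervals overlap. By cells it ranked 3 of 16 V alpha families in WT and 6 of 19 in p53 KO. Counted by distinct sequences the shares lay closer, with 27 of 271 in WT (9.96%, 6.67 to 14.2) and 15 of 183 in p53 KO (8.20%, 4.66 to 13.2), and the family ranked 5 in both. By deposited clonotypes, which group cells with the same receptor, it was in 28 of 251 (11.2%, 7.54 to 15.7) and 16 of 184 (8.70%, 5.05 to 13.7). When each cell counted by the alpha chain with most UMIs alone, the shares were 11.7% (8.56 to 15.5) and 4.67% (2.57 to 7.71), and these intervals lie apart.

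TRAV12 clones were small in both libraries. Of the 28 WT clonotypes with a TRAV12 chain, 20 had 1 cell with it, 5 had 2, 1 had 4 and 2 had 5. Of the 16 p53 KO clonotypes, 13 had 1, 2 had 2 and 1 had 3. Clonotypes of 2 or more cells held 26 of the 44 WT cells (59.1%, 43.2 to 73.7) and 9 of the 20 p53 KO cells (45%, 23.1 to 68.5). For cells with alpha chains of other V genes alone the WT share was 45.7% (40.1 to 51.4) and the p53 KO share 51.8% (45.8 to 57.8), and all these intervals overlap within a library. The order of the 2 libraries turned when cells needed a beta chain and clone sizes were recounted among such cells, at 38.7% in WT and 40% in p53 KO. With the clone sizes kept as counted over all cells it did not turn, at 54.8% and 45%. The order also turned when contigs needed 3 UMIs, at 54.1% and 57.1% with sizes recounted, but not with the sizes kept, at 59.5% and 57.1%.

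The 2 WT clonotypes of 5 cells both carried TRBV3, a beta chain V gene. One joined TRAV12-3 and TRAJ53 to TRBV3 and TRBJ2-4, with 2 to 10 UMIs of the alpha chain, and 3 of its 5 cells had the beta chain. The other joined TRAV12D-3 and TRAJ18 to TRBV3 and TRBJ2-2 in all 5 cells, with 3 to 8 UMIs of the alpha chain, and 1 of its cells held a TRBV15 chain as well. In p53 KO the largest number was 3 cells, in a clonotype that joined TRAV12-2 and TRAJ50 to TRBV10 and TRBJ1-4. The CDR3 nucleotides of these clonotypes are shown because they are the most expanded TRAV12 receptors outside the one found in both libraries, and their alpha chains use 3 different V and 3 different J genes:
WT, TRAV12-3 with TRAJ53: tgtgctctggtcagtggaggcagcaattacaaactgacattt
WT, its TRBV3 with TRBJ2-4: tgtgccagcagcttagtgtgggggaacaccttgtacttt
WT, TRAV12D-3 with TRAJ18: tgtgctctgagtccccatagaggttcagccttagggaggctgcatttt
WT, its TRBV3 with TRBJ2-2: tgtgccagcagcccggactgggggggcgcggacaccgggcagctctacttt
p53 KO, TRAV12-2 with TRAJ50: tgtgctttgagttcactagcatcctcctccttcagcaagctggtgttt
p53 KO, its TRBV10 with TRBJ1-4: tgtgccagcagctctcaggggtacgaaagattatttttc

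The WT clonotype of 4 cells paired TRAV12D-2 and TRAJ21 with TRBV12-2+TRBV13-2, which the contigs give as 1 joint name. The 5 WT clonotypes with 2 TRAV12 cells joined TRAV12D-2 to TRAJ31, TRAJ27 and TRAJ18, TRAV12-3 to TRAJ33 and TRAV12D-3 to TRAJ37. The TRAV12D-2 chain with TRAJ18 has the J gene of invariant natural killer T cells, but those cells join it to TRAV11, and neither of the 2 cells had a beta chain. A further 2 WT clonotypes of 2 cells had a TRAV12 chain in 1 of them, TRAV12-2 with TRAJ22 and TRAV12-3 with TRAJ40.

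In p53 KO, TRAV12-2 with TRAJ43 (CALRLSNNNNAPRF) was in 2 cells of a clonotype of 5 with TRBV26 (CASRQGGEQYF), where all 5 cells carried a TRAV7-3 chain. TRAV12D-3 with TRAJ31 (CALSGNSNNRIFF) was in 2 cells of a clonotype of 3 with TRBV17 (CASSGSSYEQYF), and 1 of those 2 cells also held the invariant TRAV11 and TRAJ18 chain. TRAV12D-2 was in 1 cell each of 2 clonotypes of 2 cells, with TRAJ17 and TRBV30 in one and TRAJ38 and TRBV5 in the other. No p53 KO clonotype reached the 4 or 5 TRAV12 cells of the 3 largest in WT.

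**Figure D2:**
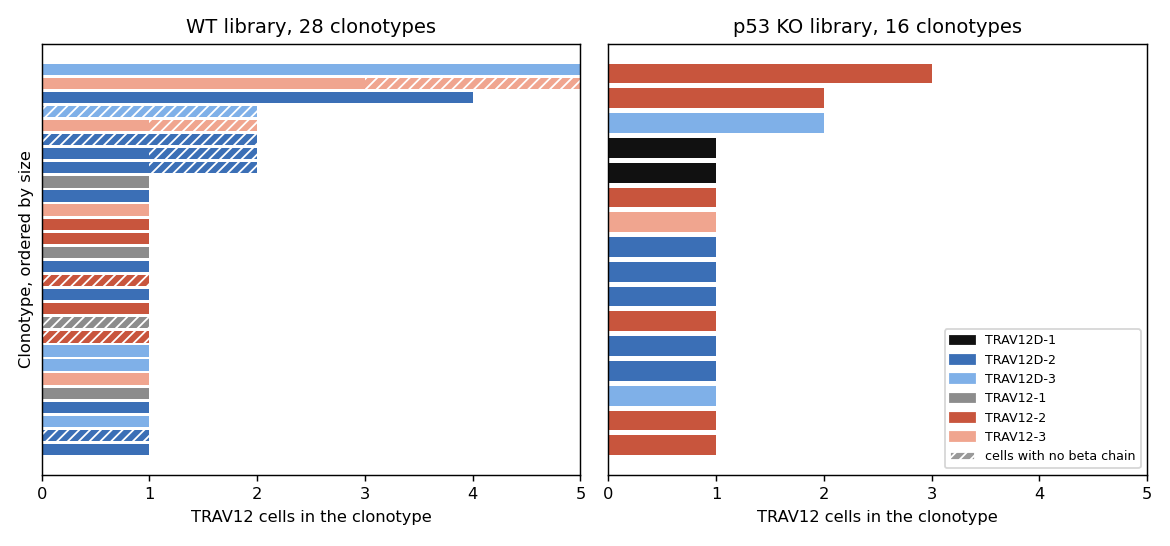
Each bar is 1 deposited clonotype with a TRAV12 chain, its length the number of cells with that chain and its colour the gene, for 28 WT clonotypes (left) and 16 p53 KO clonotypes (right). White hatching marks cells with no beta chain, which are 13 of 44 in WT and 0 of 20 in p53 KO, and the WT clonotype with chains of both TRAV12-2 and TRAV12D-3 has the colour of TRAV12-2.

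Cells with no beta chain were found in WT. They were 13 of 44 TRAV12 cells (29.5%, 16.8 to 45.2), beside 69 of 315 cells with other alpha chains (21.9%, 17.5 to 26.9). In p53 KO they were 0 of 20, which allows up to 15%, beside 41 of 280 (14.6%, 10.7 to 19.3). Of the 13 WT cells, 9 lay in clonotypes of 2 or more cells and 4 in clonotypes of 1 cell. They held 10 distinct alpha sequences, so they were not 1 clone.

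One WT alpha chain was deposited under several clonotypes. It joined TRAV12D-3 and TRAJ37 in a CDR3 of 15 residues, and its CDR3 nucleotides are shown because all 4 cells had the same:
TRAV12D-3 with TRAJ37: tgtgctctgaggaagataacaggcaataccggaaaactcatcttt

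Its 4 cells had 7, 5, 3 and 2 UMIs of the chain. The cell with 5 UMIs had the beta chain TRBV15 (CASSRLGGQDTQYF), and the cell with 2 UMIs had TRBV3 and another family member, TRAV12-2 with TRAJ44 (CAFITGSGGKLTL, 3 UMIs). The other 2 cells had no beta chain. In p53 KO, TRAV12D-1 with TRAJ9 was in 2 clonotypes of 1 cell. Both cells had the same beta chain, TRBV20 with TRBJ2-5, and 1 of them, with 1 UMI of the TRAV12D-1 chain, also held a TRBV26 and a TRAV7D-3 chain. Each of these chains thus counts once as a sequence but 3 and 2 times as a clonotype.

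In p53 KO, TRAV12 chains often lay in a cell with a second alpha chain. They did so in 11 of 20 contigs (55.0%, 31.5 to 76.9), while alpha chains of other V genes did so in 61 of 316 (19.3%, 15.1 to 24.1), a count that includes the partners of the 11. In WT the counts were 6 of 45 (13.3%, 5.05 to 26.8) and 62 of 348 (17.8%, 13.9 to 22.2). The interval of TRAV12 in p53 KO lies apart from that of other V genes in the same library and from that of TRAV12 in WT. No test was made of either difference. This pattern was chosen for its values. Without possible multiplets, which are cells with 2 or more beta or 3 or more alpha contigs, the p53 KO shares were 50.0% (26.0 to 74.0) for TRAV12 and 15.7% (11.7 to 20.4) for other V genes. With 3 or more UMIs per contig they were 5 of 14 (35.7%, 12.8 to 64.9) and 33 of 224 (14.7%, 10.4 to 20.1), and these intervals overlap. Counting each alpha sequence once they were 10 of 15 (66.7%, 38.4 to 88.2) and 49 of 168 (29.2%, 22.4 to 36.7). The TRAV12 intervals of the 2 libraries overlap on all 3 of these counts.

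The partner chains were varied. In the 11 p53 KO cells they came from 10 V genes, and TRAV7-3 was the one seen in 2 cells, both of the clonotype of 5. TRAV12 had more UMIs than its partner in 4 cells, fewer in 5 and equal numbers in 2. A single beta chain was found in 9 of the 11, and 2 beta chains in the other 2. In WT, 5 cells had 2 alpha chains of which 1 or both were TRAV12, all 5 with a single beta chain. Of the 4 with 1 TRAV12 chain, it had more UMIs than its partner in 2.

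**Figure D3:**
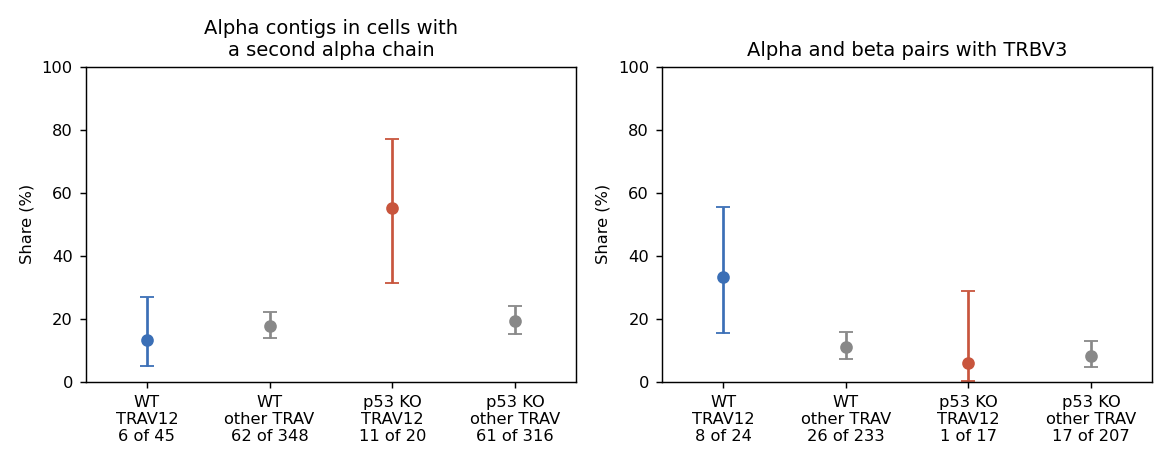
Share of alpha contigs that lie in a cell with a second alpha chain (left) and of alpha and beta pairs whose beta chain uses TRBV3 (right), for TRAV12 (coloured) and other V alpha genes (grey) in each library. Points are shares, bars are exact 95% intervals and the counts stand below, with TRAV12 in p53 KO at 55.0% on the left and TRAV12 in WT at 33.3% on the right.

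The beta partners of WT TRAV12 chains used TRBV3 most, and it was set beside other V alpha genes for that reason, after seeing the data. No test was made of the differences. Over distinct pairs of alpha and beta sequences, TRBV3 was in 8 of 24 TRAV12 pairs (33.3%, 15.6 to 55.3) and in 26 of 233 pairs of other V alpha genes (11.2%, 7.42 to 15.9). Those intervals overlap. Over distinct beta sequences it was in 7 of 23 (30.4%, 13.2 to 52.9) and 22 of 196 (11.2%, 7.17 to 16.5). With each alpha and beta combination counted once per cell, the counts were 14 of 33 (42.4%, 25.5 to 60.8) and 35 of 297 (11.8%, 8.35 to 16.0). These 2 intervals lie apart, but TRBV3 was chosen for its values, and 8 of the 14 come from the 2 clonotypes of 5 cells. A cell with 2 alpha or 2 beta chains counts more than once here, and 31 WT TRAV12 cells had a beta chain. In p53 KO, TRBV3 was in 1 of 17 TRAV12 pairs (5.88%, 0.149 to 28.7) and 17 of 207 others (8.21%, 4.86 to 12.8). That 1 pair was in a cell with 2 beta chains.

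Next in WT came TRBV12-2+TRBV13-2 and TRBV15 with 3 pairs each. In p53 KO, TRBV12-2+TRBV13-2, TRBV13-1, TRBV26 and TRBV5 had 2 each of 17 pairs, which used 13 TRBV genes in all. The TRBV13 family, with the joint name, was in 5 of 24 WT pairs (20.8%, 7.13 to 42.2) and 5 of 17 p53 KO pairs (29.4%, 10.3 to 56.0). Other V alpha genes had it in 29.6% (23.8 to 35.9) and 23.2% (17.6 to 29.5), so all 4 intervals overlap. Among J beta genes TRBJ2-7 led with 6 of 24 and 5 of 17 pairs, and TRBJ1-4 had 4 in each library. One pair of WT TRAV12 receptors had near-identical beta chains. Both beta chains used TRBV3 and TRBJ1-4 beside a TRAV12-2 chain, with TRAJ22 in one and TRAJ44 in the other, in separate clonotypes. The cell with TRAJ44 also held the TRAV12D-3 and TRAJ37 chain, and its beta chain had 2 UMIs. Which of its 2 alpha chains goes with the beta chain was not tested. The CDR3 nucleotides of the beta chains are shown with the bases that differ in capitals:
TRBV3 beside TRAJ22: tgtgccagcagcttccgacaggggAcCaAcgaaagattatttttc
TRBV3 beside TRAJ44: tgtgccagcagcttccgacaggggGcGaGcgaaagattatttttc

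The beta chains differed at 3 bases (A25G, C27G and A29G), and at 2 of 15 residues (T9A and N10S), both counted from 1 at the start of CDR3 with the chain beside TRAJ22 first. No other pair among the 23 WT or the 17 p53 KO beta chains with the same TRBV gene and length differed at 3 or fewer residues.

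TRAV12 genes joined J genes from all along the J alpha cluster. The 27 WT sequences used 19 TRAJ genes, from TRAJ6 to TRAJ58, and the 15 p53 KO sequences used 13, from TRAJ2 to TRAJ50. Of the 25 TRAJ genes used in all, 7 were used in both libraries. J genes numbered 40 or above, which lie nearest to the V genes and are joined first, were in 7 of 27 WT sequences (25.9%, 11.1 to 46.3) and 5 of 15 in p53 KO (33.3%, 11.8 to 61.6). Other V alpha genes joined them in 25.4% (20.1 to 31.4) and 20.8% (14.96 to 27.8), and the intervals overlap. TRAJ18 was joined in 2 WT sequences, in 7 cells, and in 0 of 15 p53 KO sequences, which allows up to 20.0%. TRAJ17 and TRAJ40 led in p53 KO with 2 sequences each, followed by 11 genes with 1.

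TRAJ22 led in WT with 4 sequences, each in 1 cell. They are shown because 3 different V genes of the family reached the same J end, and capitals mark the 26 bases that all 4 share at the 3′ end of CDR3:
TRAV12-1 with TRAJ22: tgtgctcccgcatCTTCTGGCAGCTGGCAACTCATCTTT
TRAV12-2 with TRAJ22: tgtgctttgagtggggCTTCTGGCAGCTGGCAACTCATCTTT
TRAV12D-2 with TRAJ22: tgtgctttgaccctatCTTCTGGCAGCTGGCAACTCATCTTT
TRAV12D-2 with TRAJ22: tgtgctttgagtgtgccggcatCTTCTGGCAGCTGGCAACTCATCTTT

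The first 3 code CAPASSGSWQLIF, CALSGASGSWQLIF and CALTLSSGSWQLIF. At the 5′ end all 4 share 6 bases. Their lengths of 13, 14, 14 and 16 residues thus differ by the bases between the V start and the J end.

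**Figure D4:**
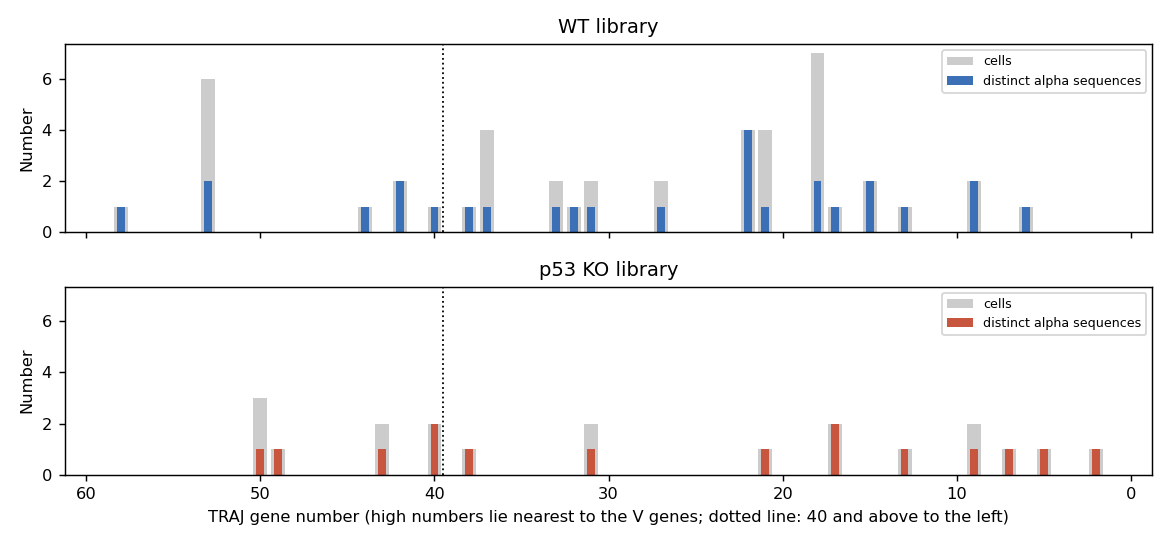
Number of TRAV12 cells (grey) and distinct alpha sequences (coloured) with each TRAJ gene, by gene number from 60 on the left to 0 on the right, in WT (top) and p53 KO (bottom). The sequences are spread along the cluster in both, with TRAJ22 highest in WT at 4 sequences and TRAJ18 highest in WT cells at 7.

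CDR3 alpha was somewhat longer with TRAV12 than with other V genes. The mean length over distinct sequences was 14.1 amino acids in WT (SD 1.55, n = 27 sequences) beside 13.5 for other V genes (SD 1.23, n = 244). In p53 KO it was 13.8 (SD 1.08, n = 15) beside 13.5 (SD 1.53, n = 168). All these differences are smaller than 1 SD between sequences, but that SD is the spread of single sequences and not the error of a mean. No interval was computed for the means or for the shares by length. The median was 14 in all 4 sets. A length of 16 was found in 6 of 27 WT TRAV12 sequences (22.2%) and in 10 of 244 others (4.10%), but in p53 KO in 1 of 15 (6.67%) and 9 of 168 (5.36%). The longest means by gene were 15.5 for TRAV12D-3 in WT (4 sequences of 15 or 16) and 15 for the 1 sequence of TRAV12D-1. TRAV12D-2 had the widest range in WT, from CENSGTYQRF with 10 residues to 16.

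**Figure D5:**
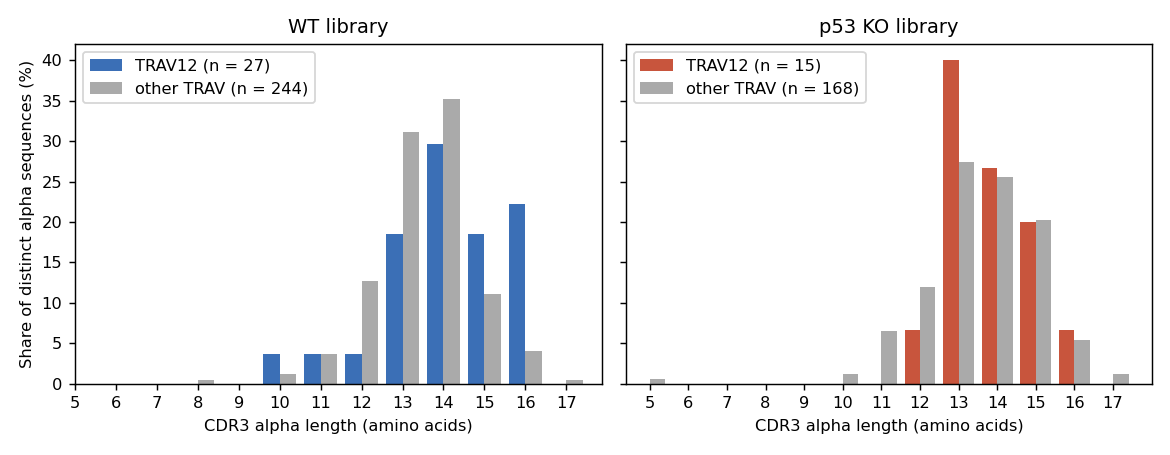
Share of distinct alpha sequences with each CDR3 length in amino acids, for TRAV12 (coloured) and other V alpha genes (grey), in the WT library (left) and the p53 KO library (right). TRAV12 peaks at 14 residues in WT, where 22.2% have 16, and at 13 in p53 KO.

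Most TRAV12 CDR3 sequences began with CALS. They were 16 of 27 in WT (59.3%, 38.8 to 77.6) and 8 of 15 in p53 KO (53.3%, 26.6 to 78.7), while 4.51% (2.27 to 7.92) and 1.79% (0.370 to 5.13) of other V genes' sequences did. The V gene writes the start of CDR3, so a gap to other V genes is built into choosing the members by V gene. CALS was in 4 of 5 TRAV12-2, 3 of 4 TRAV12-3, 6 of 10 TRAV12D-2 and 2 of 4 TRAV12D-3 sequences in WT, but in 1 of 4 for TRAV12-1, of which 2 began with CAP. In p53 KO it was in 3 of 6 TRAV12-2, 3 of 5 TRAV12D-2 and 2 of 2 TRAV12D-3 sequences, and not in the 1 sequence each of TRAV12-3 and TRAV12D-1. One gene thus gave several starts, as with CALS, CALT, CAFN and CENS for TRAV12D-2 in WT. CALR began 2 sequences in each library. A charged residue (D, E, K or R) outside the first 3 and last 3 residues was in 21 of 27 WT sequences (77.8%, 57.7 to 91.4) and 12 of 15 in p53 KO (80.0%, 51.9 to 95.7). For other V genes the shares were 91.0% (86.7 to 94.3) and 89.3% (83.6 to 93.5), and the intervals overlap.

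By V genes and amino acids, 1 TRAV12 receptor was found in both libraries. It paired TRAV12D-2 and TRAJ21 (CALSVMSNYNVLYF) with TRBV12-2+TRBV13-2 and TRBJ2-7 (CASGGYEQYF). Its CDR3 nucleotides are shown because they tell the libraries apart, with the base that differs in capitals:
TRA in WT: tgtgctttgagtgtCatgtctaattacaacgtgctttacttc
TRA in p53 KO: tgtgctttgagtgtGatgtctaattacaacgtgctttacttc
TRB in WT: tgtgccagcggtggTtatgaacagtacttc
TRB in p53 KO: tgtgccagcggtggGtatgaacagtacttc

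The alpha chain had C15G and the beta chain T15G, counted from 1 at the first base of CDR3 with WT first. Both changes lie at the last base of codon 5 and leave the residue as it was. The V sequences of both chains were the same in the libraries. In WT all 4 cells had the same alpha and the same beta nucleotides, with 3, 8, 10 and 12 UMIs of the alpha chain and 5 to 17 of the beta chain. In p53 KO 1 cell had it, with 6 UMIs of alpha and 5 of beta. At 10 residues its CDR3 beta was as short as any among the TRAV12 receptors of either library, tied in WT with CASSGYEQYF of another TRAV12D-2 cell. By alpha chain alone, 1 of 27 WT and 15 p53 KO TRAV12 chains was common to both (3.70% and 6.67%), beside 3 of 240 and 165 for other V genes (1.25% and 1.82%).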

How the data were processed

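Single cells of whole tumours were captured with 10x Chromium 5' chemistry, per the labels' protocols, and 2 TCR libraries, 1 per genotype, were analysed. The matching gene expression samples were not used here. The authors deposited filtered contigs with reads and UMIs as whole-number counts per contig, per the file headers, without normalization. Cell Ranger 6.1.1 and mm10 were used, per the submitters' processing notes. Which TCR reference was used is not stated in the labels. High-confidence, full-length and productive marks stood on every contig, 733 in WT and 709 in p53 KO, which rested on 4280 and 4138 UMIs and 14957044 and 19853340 reads.

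Every TRAV12 contig counted, with cells having any alpha chain as the denominator. Clonotypes are the deposited identifiers. Genes named were all TRAV12 genes with a contig, the 3 most frequent partners per library, clonotypes of 2 or more cells, chains in 2 or more clonotypes and shared receptors. The members and these rules were chosen with earlier results of these data known. Exact 95% intervals were computed for shares other than those by CDR3 length and of chains common to both libraries. No doublet caller was run. Alternatives were paired cells, the top contig, 3 or more UMIs, no possible multiplets, and other units of counting. After seeing the data, the shares of second alpha chains and of TRBV3 partners, set beside other V genes, were added with their alternatives. Further alternatives for clone sizes were also added then. Intervals came from scipy 1.17.1, tables from pandas 2.3.3 with numpy 2.4.6, and figures from matplotlib 3.10.9, under Python 3.11.15.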

Additional observations from a re-analysis of the deposited data

How the results depend on the processing

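The share of WT TRAV12 cells in clonotypes of 2 or more cells moved outside its interval to 38.7% (12 of 31) with paired cells and clone sizes recounted among them. With clone sizes kept as counted over all cells, an alternative added after seeing the data, it was 54.8% (17 of 31). By CDR3 nucleotides in place of amino acids, 0 receptors were shared. The other 44 of 46 values recomputed under the alternatives not added after seeing the data lay within the interval, SD or count of the main value. For CDR3 length the limit was 1 SD between sequences, which recounts of the same sequences could hardly cross, so those values show little. For the family share, p53 KO minus WT stayed negative in all 6 alternatives, from -7.03 to -1.77 percentage points, beside -5.59 as reported. The order of the libraries for TRBV13 family partners turned in 2 alternatives. With each alpha and beta combination counted once per cell, the shares were 24.2% in WT and 22.7% in p53 KO. A cell with 2 alpha or 2 beta chains counts more than once there. With 3 or more UMIs the shares were 25.0% and 20.0%. Without possible multiplets, TRBV3 was in 0 of 14 p53 KO pairs. With 15 distinct p53 KO sequences, a count of 0 allows up to 20.0%. No paired analysis was possible because each genotype had 1 library.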
